A study of Mus musculus with 3 samples.

Results

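Polyamines (putrescine, spermidine and spermine) are small positively charged molecules that bind RNA and DNA and are needed for growth and translation. The pathway is known for control by protein turnover and by translation as well as by transcript level, so the values below describe RNA and not enzyme activity. Polyamine synthesis is usually linked to proliferating cells, neural progenitors included, and acetylation to stress. The genes described here are 10 of the 31053 genes listed in each of 3 mouse cortical libraries, found by symbol. They are the synthesis enzymes Odc1, Amd1, Srm and Sms, the antizymes Oaz1 and Oaz2, the antizyme inhibitor Azin1, and the breakdown enzymes Sat1, Smox and Paox. All 10 had UMIs (unique molecular identifiers, which count captured RNA molecules) in every library.

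The 3 libraries were made with the 10x Genomics system from methanol-fixed cells of C57BL/6 mouse cortex. MIM-treated astrocytes had been changed from astrocyte medium to MIM, the study's serum-free mix of DMEM-F12 and Neurobasal with B27, N2, FGF2 at 20 ng/mL and up to 6 metabolites, and were harvested by day 5. Among the metabolites are putrescine itself and S-adenosylmethionine, the precursor of the aminopropyl donor, beside methionine, threonine, glycine and cysteine. Astrocytes, the untreated culture, stayed in DMEM-F12 with 10% serum, B27 and Glutamax. The labels give embryonic day 14.5 as the age of all 3 samples, while the protocol's sorted astrocytes come from postnatal day 4. Neural stem cells grew as neurospheres from embryonic cortex, within their first 3 passages, in Neurobasal with B27 and EGF and FGF2 at 20 ng/mL each. The labels do not give the metabolite combination or the day for the MIM library. Nor do they say whether the astrocytes were sorted from postnatal day 4 cortex or differentiated from neurospheres. F12, N2 and B27 are themselves known to contain putrescine, so the polyamine was not particular to MIM, and serum, FGF2, base medium and metabolites cannot be told apart here.

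With 1 library a group nothing could be tested or checked against replicates. Brackets hold 95% counting intervals, which leave out variation between cultures and spread between cells beyond counting. Overlap of such intervals, or its absence, is a description and not a test. The kept cells numbered 14964 MIM-treated astrocytes, 9818 astrocytes and 9145 neural stem cells, with medians of 3156, 5089 and 1379 UMIs. A level is the pooled UMI count of a gene per 1000000 UMIs of that library or class (CPM), with no length term, so genes are not ranked against each other. Malat1, a nuclear non-coding RNA, took 9.44%, 13.7% and 26.9% of UMIs in the same order, which lowers every other CPM value most in neural stem cells. Of 10 fixed astrocyte markers all 10 were detected in each library, with summed levels of 1523, 6396 and 1080 CPM, and of 10 progenitor markers all 10, with 10516, 2116 and 4757 CPM. At 50 CPM or more were 6, 7 and 4 of the astrocyte markers and 6, 3 and 8 of the progenitor markers. The progenitor sum was thus highest in MIM-treated astrocytes, while more of these markers reached 50 CPM in neural stem cells. Gfap, the astrocyte intermediate filament, was at 4.05 CPM in MIM-treated astrocytes, 271 CPM in astrocytes and 1.16 CPM in neural stem cells. All 4 haemoglobin genes were at 0 in every library, and 8 microglial markers (3, 2 and 1 detected) summed to 0.0982, 0.356 and 0.136 CPM. Endothelial markers (3 of 6 detected in each) summed to 0.393, 1.38 and 0.953 CPM, and ependymal markers (2, 4 and 2 of 4) to 5.97, 23.8 and 2.52 CPM. Fibroblast and mural markers summed to 5.13, 295 and 11.3 CPM, with 6, 6 and 4 of 8 detected and most of the astrocyte sum from Tagln (249 CPM), while Col1a2 and Lum were at 0 in all libraries. Oligodendrocyte-lineage markers (8, 6 and 7 of 8 detected) summed to 628, 139.9 and 776 CPM and neuronal markers (8, 6 and 8 of 8) to 83.1, 69.5 and 293 CPM. The part of these markers in the results below was not tested. The libraries shared 43, 32 and 25 cell barcodes in pairs, and none was in all 3.

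Cells were also split by division. Each cell with at least 1000 UMIs was thinned to 1000. A cell with at least 3 UMIs of 58 S and G2/M genes was called dividing and one with 0 non-dividing. Cells with 1 or 2 such UMIs were in neither class. These were 2860 MIM-treated astrocytes, 501 astrocytes and 943 neural stem cells. Dividing cells made up 4063 of 13991 MIM-treated astrocytes, or 29.0% (28.3 to 29.8), and 569 of 7688 neural stem cells, or 7.40% (6.83 to 8.01). Only 1 of 9467 astrocytes was called dividing, so astrocytes have no dividing class and are described by their 8965 non-dividing cells. No member is in the division list. Before thinning, the non-dividing cells still held division-list UMIs. The list summed to 174 CPM in MIM-treated astrocytes, 45.5 CPM in astrocytes and 55.1 CPM in neural stem cells. The non-dividing classes are therefore not fully matched for division.

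Odc1 (mm10 chr12:17544794-17551505) encodes ornithine decarboxylase, which makes putrescine and is the usual entry step of the pathway. Its level was 19.1 CPM (17.9 to 20.4) in MIM-treated astrocytes, 36.7 CPM (35.1 to 38.5) in astrocytes and 49.6 CPM (46.0 to 53.3) in neural stem cells. The MIM library was thus the lowest of the 3, 1.92-fold below astrocytes (1.78 to 2.08) and 2.59-fold below neural stem cells (2.35 to 2.86). Among non-dividing cells Odc1 was at 14.8 CPM in MIM-treated astrocytes, 36.5 CPM in astrocytes and 45.9 CPM in neural stem cells. In the non-dividing class the MIM library stood 2.46-fold below astrocytes (2.20 to 2.77), against 1.92-fold over all cells.

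Azin1 (chr15:38487427-38519266) encodes a catalytically inactive relative of ornithine decarboxylase that binds antizyme and so spares the enzyme. Its level was 12.3 CPM (11.4 to 13.3) in MIM-treated astrocytes, 47.0 CPM (45.2 to 49.0) in astrocytes and 21.1 CPM (18.8 to 23.6) in neural stem cells. MIM-treated astrocytes were again the lowest, 3.81-fold below astrocytes (3.49 to 4.17) and 1.71-fold below neural stem cells (1.49 to 1.96). Among non-dividing cells the gap to astrocytes was 4.78-fold (4.17 to 5.49), with 9.84 CPM in MIM-treated astrocytes and 47.0 CPM in astrocytes.

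Oaz1 (chr10:80826656-80829290) and Oaz2 (chr9:65668001-65690300) encode antizymes, which bind ornithine decarboxylase, send it to the proteasome and restrain polyamine uptake. Translation of an antizyme requires the ribosome to skip 1 base at a stop codon, and polyamines are known to promote that shift. Both mouse transcripts carry the site, shown here as the feature through which these RNAs are known to read polyamine levels. The capitals mark the serine codon and the stop codon after it, and the annotated coding sequence leaves out the T that opens the stop codon. The sequences, taken from GENCODE M21 transcripts, lie at chr10:80828268-80828327 and chr9:65686245-65686304 on the plus strand of mm10.
Oaz1: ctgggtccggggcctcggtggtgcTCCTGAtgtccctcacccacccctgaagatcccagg
Oaz2: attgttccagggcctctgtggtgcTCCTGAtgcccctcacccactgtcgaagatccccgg
In the annotation 68 codons precede the stop in Oaz1 and 32 in Oaz2, and 159 and 157 codons follow the skipped base. UMI counts do not show how often the shift occurred.

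Oaz1 was at 828 CPM (820.4 to 836) in MIM-treated astrocytes, 1445 CPM (1435 to 1456) in astrocytes and 395 CPM (385 to 405) in neural stem cells. The order of the levels was astrocytes, MIM-treated astrocytes, neural stem cells, with no overlap of the counting intervals. Oaz1 was 1.74-fold lower in MIM-treated astrocytes than in astrocytes (1.72 to 1.77) and 2.10-fold higher than in neural stem cells (2.04 to 2.16). Oaz2 was at 66.8 CPM (64.6 to 69.1), 118 CPM (115 to 121) and 57.3 CPM (53.5 to 61.3) in the same 3 libraries. By library totals the 2 antizymes thus had the same order of levels, with a smaller gap for Oaz2 between MIM-treated astrocytes and neural stem cells (1.17-fold, 1.08 to 1.26). Scaling decides the sign of that Oaz2 gap, with log2 values from -0.09 to 0.62 over the alternatives.

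Counts of 1 transcript per UMI of another need no library total, so they are not moved by Malat1 or by the choice of scaling. There were 43.3 Oaz1 UMIs per Odc1 UMI (40.7 to 46.2) in MIM-treated astrocytes, 39.3 (37.6 to 41.2) in astrocytes and 7.97 (7.37 to 8.62) in neural stem cells. Over all cells the intervals of both astrocyte libraries overlapped and lay above that of neural stem cells. Among non-dividing cells the ratio was 47.7 (42.9 to 53.2) in MIM-treated astrocytes, 39.5 (37.7 to 41.5) in astrocytes and 8.21 (7.46 to 9.05) in neural stem cells, with no overlap. Among dividing cells alone the ratio was 39.2 (35.7 to 43.1) in MIM-treated astrocytes and 6.65 (5.40 to 8.26) in neural stem cells, so the gap was present within dividing cells too. Azin1 UMIs per Odc1 UMI were 0.645 (0.583 to 0.714) in MIM-treated astrocytes, 1.28 (1.20 to 1.36) in astrocytes and 0.426 (0.372 to 0.487) in neural stem cells. By this measure MIM-treated astrocytes lay between the other libraries. These pairs were chosen after the levels were seen.

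**Figure D1:**
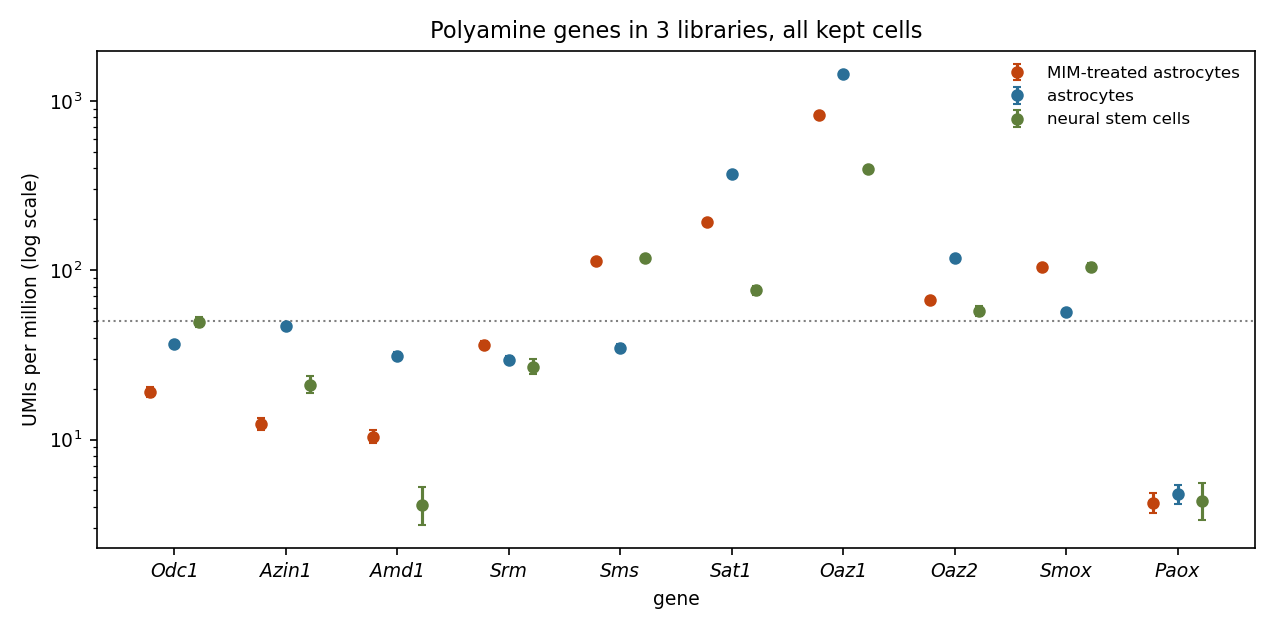
Level of each gene in CPM (log axis) over all kept cells of each library, with exact 95% counting intervals; the dotted line is 50 CPM. Odc1 and Azin1 are lowest in MIM-treated astrocytes (19.1 and 12.3 CPM), while Sms and Smox in that library (114 and 105 CPM) lie beside neural stem cells and not beside astrocytes.

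Srm (chr4:148591503-148594993), spermidine synthase, joins putrescine to an aminopropyl group. It was at 36.3 CPM (34.6 to 38.0) in MIM-treated astrocytes, 29.7 CPM (28.2 to 31.2) in astrocytes and 27.0 CPM (24.4 to 29.7) in neural stem cells. These differences over all cells were small by library totals. For MIM-treated astrocytes over neural stem cells the log2 values ran from 0.12 to 0.81 over the alternatives. Among non-dividing cells the 3 values were 27.5, 29.6 and 27.5 CPM with overlapping intervals. In the dividing cells of the MIM library Srm was at 47.3 CPM (44.2 to 50.7). In dividing neural stem cells it was at 22.4 CPM (15.3 to 31.7) from 32 UMIs, 2.11-fold lower (1.48 to 3.11).

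Sms (chrX:157443855-157492287), spermine synthase, adds the second aminopropyl group and makes spermine. Its level was 114 CPM (111 to 117) in MIM-treated astrocytes, 34.8 CPM (33.2 to 36.5) in astrocytes and 118 CPM (112 to 124) in neural stem cells. MIM-treated astrocytes were 3.27-fold above astrocytes and 1.03-fold below neural stem cells, the last with overlapping level intervals. Scaling decides the sign of that last difference, with log2 values from -0.36 to 0.36 over the alternatives. Sms kept its gap to astrocytes among non-dividing cells, where it was at 110 CPM (106 to 114) in MIM-treated astrocytes and 34.8 CPM (33.1 to 36.5) in astrocytes. It was the member with the largest positive log2 ratio of MIM-treated astrocytes over astrocytes, 1.68 (1 CPM added to each level).

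Amd1 (chr10:40287458-40302186) encodes S-adenosylmethionine decarboxylase, which makes the aminopropyl donor used by both synthases. As counted, it was at 10.4 CPM (9.53 to 11.3) in MIM-treated astrocytes, 31.3 CPM (29.8 to 32.9) in astrocytes and 4.08 CPM (3.12 to 5.26) in neural stem cells. These values cannot be read as levels of the enzyme's transcript, because mouse has a near-identical intronless copy, Amd2 (chr10:35708675-35711892), on the same chromosome. The annotated transcripts Amd1-201 and Amd2-201 are 3204 and 3218 bases long and identical in 99.1% of 3218 aligned columns, with a run of 483 identical columns within the last 500. The promoter windows show where the copies part, and the capitals mark the longest shared run, which lies at the downstream end of each window, from about the annotated start onward. The windows are from RefSeq on GRCm38.p6, minus strand, at chr10:40302139-40302438 for Amd1 and chr10:35711842-35712141 for Amd2.
Amd1: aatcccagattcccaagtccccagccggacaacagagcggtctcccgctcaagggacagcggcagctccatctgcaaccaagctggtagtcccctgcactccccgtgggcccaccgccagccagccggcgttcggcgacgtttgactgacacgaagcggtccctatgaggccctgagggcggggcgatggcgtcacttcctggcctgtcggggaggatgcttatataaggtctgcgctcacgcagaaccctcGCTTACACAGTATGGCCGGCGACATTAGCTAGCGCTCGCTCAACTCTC
Amd2: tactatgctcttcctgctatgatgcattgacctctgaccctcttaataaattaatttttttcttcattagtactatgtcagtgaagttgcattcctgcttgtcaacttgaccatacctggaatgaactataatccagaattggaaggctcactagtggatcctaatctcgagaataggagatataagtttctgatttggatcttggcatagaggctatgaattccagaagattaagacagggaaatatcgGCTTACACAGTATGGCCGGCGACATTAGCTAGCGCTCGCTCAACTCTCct
The shared run is 48 bases, and the bases before it were identical in 48.3% of 290 aligned columns.

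Amd2 was at 33.3 CPM in MIM-treated astrocytes, 15.2 CPM in astrocytes and 62.6 CPM in neural stem cells, the reverse of the order for Amd1. Amd1 took 23.8% (22.0 to 25.6) of the UMIs of both genes in MIM-treated astrocytes, 67.2% (65.3 to 69.1) in astrocytes and 6.13% (4.71 to 7.82) in neural stem cells. Summed, the pair was at 43.7 CPM (41.9 to 45.5), 46.5 CPM (44.7 to 48.4) and 66.6 CPM (62.5 to 71.0) in the same libraries. The 3.01-fold lower Amd1 of MIM-treated astrocytes against astrocytes (2.73 to 3.33) became a summed ratio of 0.939 (0.885 to 0.995). The 7.66-fold higher Amd1 of astrocytes against neural stem cells (5.92 to 10.1) turned round, to a summed ratio of 0.698 (0.648 to 0.753). Whether the split reflects 2 transcribed genes or the assignment of shared reads was not tested.

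**Figure D2:**
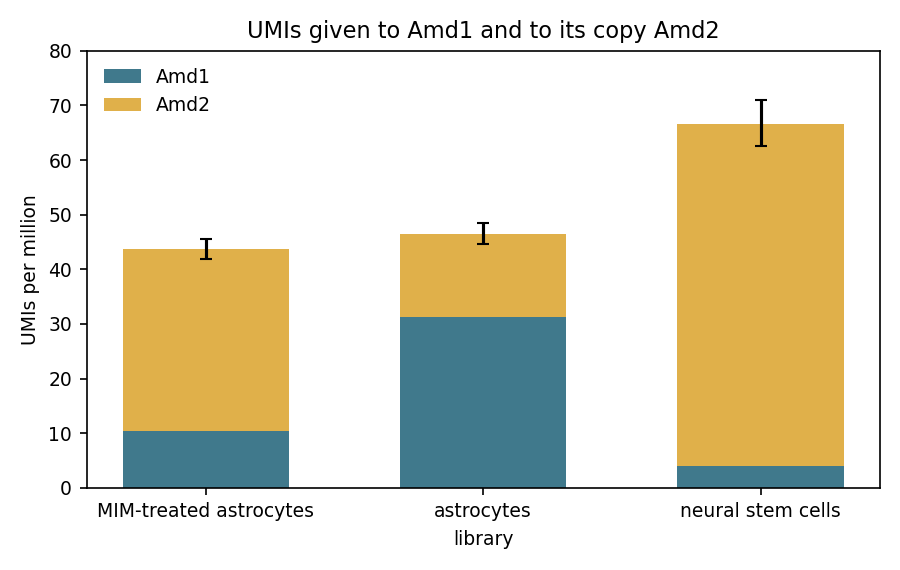
CPM given to Amd1 (lower segment) and to Amd2 (upper segment) in each library, with the exact 95% counting interval of the sum. The sum is 43.7 CPM in MIM-treated astrocytes and 46.5 CPM in astrocytes, while the Amd1 segment is 23.8% and 67.2% of it.

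Sat1 (chrX:155213132-155216449) encodes spermidine/spermine N1-acetyltransferase, which acetylates polyamines for export or oxidation and is the inducible step of breakdown. It was at 192 CPM (188 to 196) in MIM-treated astrocytes, 371 CPM (366 to 377) in astrocytes and 76.0 CPM (71.6 to 80.6) in neural stem cells. MIM-treated astrocytes were 1.93-fold below astrocytes (1.88 to 1.98) and 2.53-fold above neural stem cells (2.38 to 2.70), and astrocytes were 4.89-fold above neural stem cells (4.60 to 5.20). Among non-dividing cells the MIM library was nearer to astrocytes, with 246 CPM (240.1 to 253) in MIM-treated astrocytes, 371 CPM (366 to 377) in astrocytes and 78.8 CPM (73.5 to 84.4) in neural stem cells. Sat1 UMIs per Sms UMI, chosen after seeing the levels, were 1.69 (1.63 to 1.74) in MIM-treated astrocytes, 10.7 (10.2 to 11.2) in astrocytes and 0.644 (0.597 to 0.695) in neural stem cells.

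Smox (chr2:131491496-131525922) encodes spermine oxidase, which turns spermine back into spermidine. It was at 105 CPM (102 to 107) in MIM-treated astrocytes, 56.9 CPM (54.9 to 59.0) in astrocytes and 105 CPM (99.4 to 109.9) in neural stem cells. Like Sms, it was alike in MIM-treated astrocytes and neural stem cells (log2 ratios from -0.31 to 0.41 over the scalings and other alternatives) and higher than in astrocytes, by 1.84-fold (1.76 to 1.92). Paox (chr7:140115799-140137224), the oxidase of acetylated polyamines, was at 4.22 CPM (3.68 to 4.83), 4.76 CPM (4.18 to 5.40) and 4.36 CPM (3.36 to 5.56), with overlapping intervals. The transcripts of Smox and Sat1 thus had opposite orders between the astrocyte libraries, with Smox higher and Sat1 lower in MIM-treated astrocytes, under every alternative.

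Sms and Sat1, the X-linked members, differed in opposite directions in both comparisons with astrocytes. Xist, the RNA of the silenced X chromosome, was at 35.2 CPM in MIM-treated astrocytes, 24.5 CPM in astrocytes and 224 CPM in neural stem cells, and its relation to Sms and Sat1 was not tested. Over 89 X-linked genes at 50 CPM the median log2 ratio of MIM-treated astrocytes over astrocytes was -0.08, and over 2794 autosomal genes it was -0.07. For astrocytes over neural stem cells these medians were 0.29 and 0.39. Their promoter windows (RefSeq, GRCm38.p6, minus strand), at chrX:157492238-157492537 for Sms and chrX:155216400-155216699 for Sat1, are shown for that contrast, with motif matches in capitals.
Sms: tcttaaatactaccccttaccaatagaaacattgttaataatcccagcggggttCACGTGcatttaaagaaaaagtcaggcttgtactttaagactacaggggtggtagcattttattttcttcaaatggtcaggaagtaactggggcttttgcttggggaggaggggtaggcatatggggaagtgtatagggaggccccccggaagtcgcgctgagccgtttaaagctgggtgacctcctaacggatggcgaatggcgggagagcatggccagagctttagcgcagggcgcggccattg
Sat1: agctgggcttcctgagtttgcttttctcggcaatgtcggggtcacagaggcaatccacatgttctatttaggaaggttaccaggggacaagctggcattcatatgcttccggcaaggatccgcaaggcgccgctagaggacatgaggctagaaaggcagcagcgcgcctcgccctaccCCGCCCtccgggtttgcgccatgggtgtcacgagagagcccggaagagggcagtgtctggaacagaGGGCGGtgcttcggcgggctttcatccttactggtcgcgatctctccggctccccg
Windows for 8 of 10 members were searched on both strands for 4 motifs, and no match of 1 motif overlapped a match of another. The E-box of Myc family factors, CACGTG, was in the Sms window and in 7.15% of 32851 promoter windows of the same length. The GC box, GGGCGG, was in windows of Odc1, Amd1, Sat1, Oaz2, Smox and Paox and in the second Sms window, and in 35.7% of all. The core of the antioxidant response element, TGACNNNGC, was in the Oaz1 and Smox windows and in 12.4% of all. The TATA box, TATAAA, was in that of Oaz1 and in 13.6% of all. These matches are letters in a window only.

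The members were then set beside all genes. To count as higher or lower, a gene had to differ by at least 2-fold (a log2 ratio past 1 or -1) and to reach 50 CPM in either library, and 5 of 10 members reached that level. In comparisons with astrocytes Sms reached it only through the other library. For MIM-treated astrocytes over astrocytes 1 member was higher (Sms) and 0 lower, where 14.7% and 17.5% of 2895 genes were. A wider rule asked for 20 UMIs over both libraries, which all 10 members met, and by it 1 was higher and 2 were lower (Azin1 and Amd1), where 8.49% and 15.2% of 13876 genes were. The median log2 ratio was -0.80 over the 10 members and -0.19 over all genes with 20 UMIs. The member median includes the uncertain Amd1 value of -1.50, which was -0.09 when summed with Amd2. A median with that sum was not computed, so -0.80 is not read as a drop of the pathway. For astrocytes over neural stem cells these medians were 0.58 and -0.03. For MIM-treated astrocytes over neural stem cells they were 0.11 and -0.24, with Amd1 as counted in both. For astrocytes over neural stem cells 3 of the 5 were higher (Sat1, Oaz1 and Oaz2) and 1 lower (Sms), where 31.2% and 22.9% of 3192 genes were. Oaz2 sits at the threshold there, with log2 ratios from 0.79 to 1.21 over the alternatives. The wider rule gave 5 higher and 1 lower of 10, where 19.9% and 22.6% of genes were. For MIM-treated astrocytes over neural stem cells 2 of 5 were higher (Sat1 and Oaz1) and 0 lower, where 20.3% and 16.2% of 2830 genes were, and the wider rule gave 3 higher and 1 lower (Odc1), where 9.29% and 20.5% of genes were. Oaz1 sits near the threshold in this last comparison, with log2 ratios from 0.76 to 1.48 over the alternatives. Amd1 counts in each wider-rule total and is uncertain there. The 3 comparisons share libraries and are not independent. The balance of all genes depends on scaling: for MIM-treated astrocytes over astrocytes 426 genes were higher and 508 lower by library totals, against 611 and 381 with TMM factors, and for MIM-treated astrocytes over neural stem cells 575 and 458, against 1121 and 242.

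Among non-dividing cells the counts for MIM-treated astrocytes over astrocytes were 2 higher (Sms and Smox) and 1 lower (Oaz1), where 11.2% and 17.7% of genes were. By the wider rule 2 were higher and 4 lower, with Odc1, Azin1, Amd1 and Oaz1 the lower ones, where 6.05% and 16.4% of 13394 genes were. Oaz1 and Smox sit at the 2-fold threshold, with log2 ratios from -1.10 to -0.74 and from 0.96 to 1.35 over the alternatives. Astrocytes over neural stem cells gave 3 higher and 1 lower, where 32.2% and 22.2% of genes were, and by the wider rule 5 and 1, where 21% and 21.4% were. Oaz2, among the higher ones, had log2 ratios from 0.77 to 1.18 over the alternatives. MIM-treated astrocytes over neural stem cells gave 1 higher (Sat1) and 0 lower, where 17.6% and 17.3% were, and by the wider rule 2 and 1, where 8.92% and 23.6% were. Among dividing cells the last pair gave 1 higher (Oaz1) and 1 lower (Odc1) of 6 members at 50 CPM, where 16% and 13.6% of 2908 genes were. Odc1 reached 50 CPM there only in neural stem cells, and Oaz1 had log2 ratios from 0.84 to 1.44 over the alternatives. The wider rule gave 3 higher (Amd1, Srm and Oaz1) and 1 lower, where 10.8% and 19.3% of genes were, and the Amd1 value there rests on 1 UMI in neural stem cells.

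**Figure D3:**
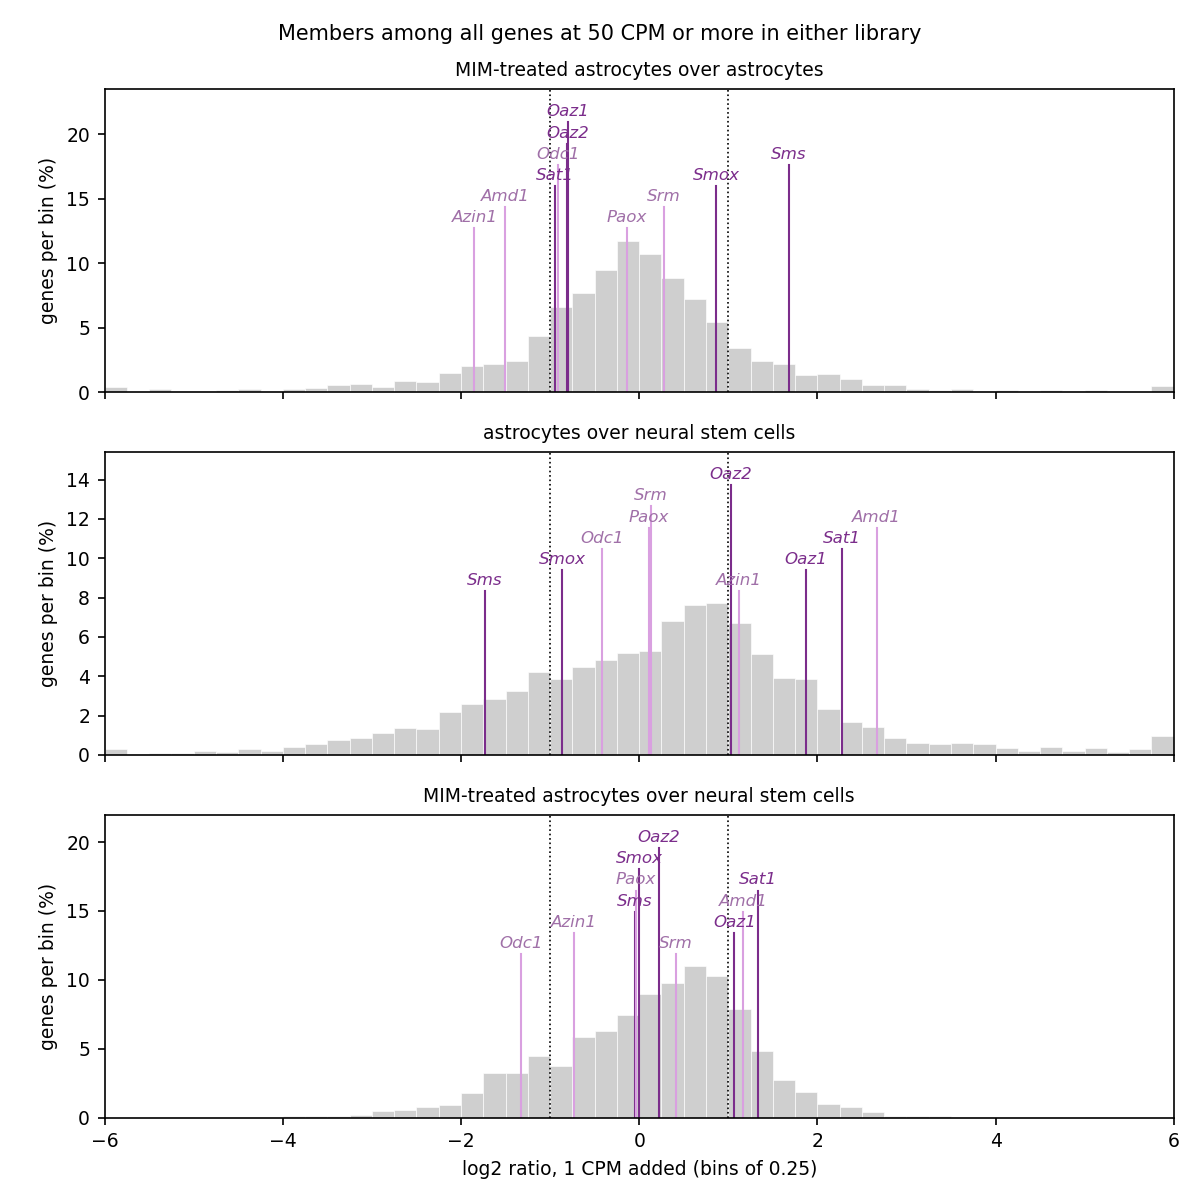
Share of genes (%) by log2 ratio, in bins of 0.25, for all genes at 50 CPM or more in either library (grey bars; the outermost bins also hold values beyond the axis). Vertical lines mark the 10 members, dark for those at 50 CPM and pale for those below, and dotted lines mark 2-fold. Sms lies at 1.68 for MIM-treated astrocytes over astrocytes and Sat1 at 2.27 for astrocytes over neural stem cells, both within the spread of all genes.

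Dividing and non-dividing cells were compared next within a library, in classes set without the members. Odc1 was at 25.3 CPM (23.0 to 27.8) in dividing and 14.8 CPM (13.3 to 16.4) in non-dividing MIM-treated astrocytes. In neural stem cells it was at 72.2 CPM (58.9 to 87.5) in dividing and 45.9 CPM (41.9 to 50.3) in non-dividing cells. Dividing cells were higher in both libraries, by 1.71-fold (1.48 to 1.97) and 1.57-fold (1.26 to 1.95), yet dividing MIM-treated astrocytes stayed below non-dividing neural stem cells. Azin1 was 1.70-fold higher in dividing MIM-treated astrocytes (1.43 to 2.02) and 1.43-fold higher in dividing neural stem cells (0.994 to 2.00). Oaz1 was at 990.5 CPM in dividing and 706 CPM in non-dividing MIM-treated astrocytes, a ratio of 1.40 (1.37 to 1.43), and its ratio in neural stem cells was 1.27 (1.17 to 1.38).

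Sat1 and Smox were lower in dividing cells, with overlapping Sat1 intervals in neural stem cells, while Paox intervals overlapped in both libraries. Sat1 was at 120 CPM (115 to 125) in dividing and 246 CPM (240.1 to 253) in non-dividing MIM-treated astrocytes, 2.06-fold lower (1.96 to 2.17). In neural stem cells it was at 65.9 CPM (53.2 to 80.6) in dividing and 78.8 CPM (73.5 to 84.4) in non-dividing cells, a 1.20-fold lower value. Smox was 1.54-fold lower in dividing MIM-treated astrocytes (1.44 to 1.64) and 1.59-fold lower in dividing neural stem cells (1.30 to 1.98). Sat1 was the 1 of 5 members past 2-fold within MIM-treated astrocytes, and it was lower, where 1.04% of 2586 genes were lower and 11.2% higher. By the wider rule it was 1 of 10 (1.34% of genes lower, 7.12% higher). Within neural stem cells 0 of 6 members at 50 CPM were past 2-fold, where 7.83% of genes were higher and 0.942% lower. The wider rule gave 0 higher and 1 lower (Amd1, from 1 UMI in dividing cells), where 5.89% and 4.78% were. The Sat1 call in MIM-treated astrocytes sits at the threshold and was lost under 3 alternatives. Astrocyte markers summed to 1083 CPM in dividing and 1840 CPM in non-dividing MIM-treated astrocytes, and their part in the Sat1 difference was not tested.

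**Figure D4:**
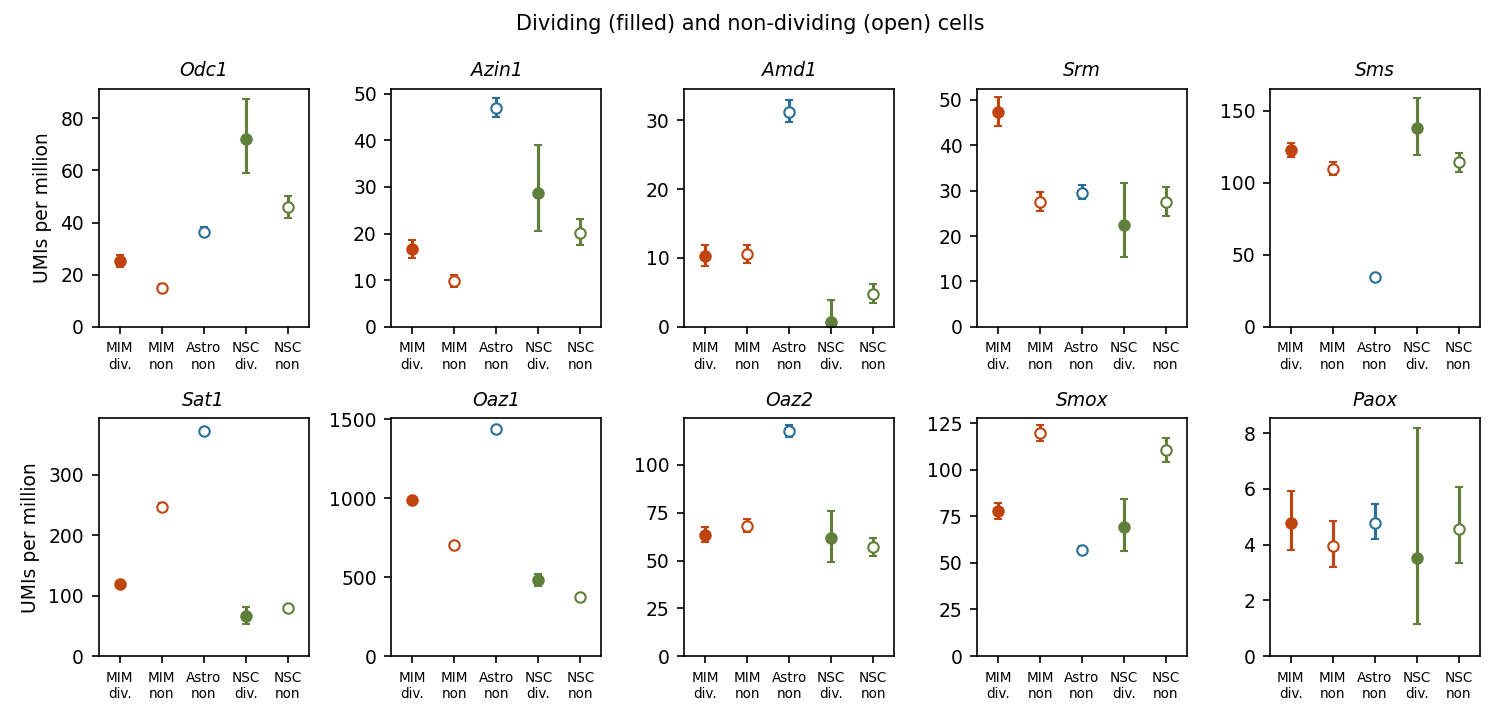
Level of each member in CPM (axes from 0, a scale per gene) in dividing cells (filled) and non-dividing cells (open) of each library, with exact 95% counting intervals; astrocytes have non-dividing cells only. In MIM-treated astrocytes Odc1 is at 25.3 CPM in dividing and 14.8 CPM in non-dividing cells, and Sat1 at 120 and 246 CPM.

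Srm varied with the phase of division. Dividing cells with more S than G2/M list UMIs numbered 569 in MIM-treated astrocytes and 77 in neural stem cells, and those with more G2/M list UMIs 3339 and 475. In MIM-treated astrocytes Srm was at 75.5 CPM in S-leaning cells, 41.1 CPM in G2/M-leaning cells and 27.5 CPM in non-dividing cells. In neural stem cells it was at 52.2 CPM from 11 UMIs, 17.0 CPM from 20 UMIs and 27.5 CPM. G2/M-leaning cells were below S-leaning cells in both libraries, by 1.84-fold (1.55 to 2.17) and 3.07-fold (1.33 to 6.72). Within MIM-treated astrocytes Srm was 2.74-fold (2.32 to 3.23) higher in S-leaning than in non-dividing cells. Of 2571 genes at 50 CPM in either class 11.4% were past 2-fold higher and 1.17% lower. Srm reached 50 CPM only in S-leaning cells, so it is not read against those shares. Spermidine synthase is a known target of the growth regulator Myc, whose own transcript was at 3.77 CPM in MIM-treated astrocytes, 7.77 CPM in astrocytes and 8.58 CPM in neural stem cells. Myc was at 2.67 CPM in dividing and 4.16 CPM in non-dividing MIM-treated astrocytes, and at 8.41 and 8.04 CPM in neural stem cells. The part of Myc in the Srm values was not tested.

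Shares of thinned cells had the order of the CPM levels for 8 of 10 members, the others being Smox, alike in level in MIM-treated astrocytes and neural stem cells, and Paox, whose intervals overlapped. At 1000 UMIs a cell, an Oaz1 UMI was found in 56.5% of MIM-treated astrocytes (55.6 to 57.3), 75.4% of astrocytes (74.5 to 76.2) and 30.9% of neural stem cells (29.8 to 31.9). Without thinning, those shares were 87.0%, 97.6% and 42.4%. Sat1 was found in 15.1%, 29.4% and 7.34% of thinned cells, and in 38.3%, 74.0% and 10.8% without thinning. Within MIM-treated astrocytes it was found in 9.99% of dividing cells (9.09 to 11.0) and 18.3% of non-dividing cells (17.4 to 19.2). Sms was found in 10.7%, 3.23% and 11.3% of thinned cells, and Odc1 in 1.67%, 3.59% and 4.60%. Thinned shares of the other members were between 0.338% (Amd1 in neural stem cells) and 10.7% (Oaz2 in astrocytes). Without thinning the order changed for 6 members (Odc1, Azin1, Srm, Sms, Smox and Paox), and astrocyte cells were the deepest (5089 UMIs at the median). Unthinned shares were 6.19%, 16.8% and 7.28% for Odc1, 4.03%, 21.1% and 3.27% for Azin1, and 28.0%, 24.6% and 14.1% for Smox. These genes are not restricted to a cell type, so no cells here give a share for free RNA.

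**Figure D5:**
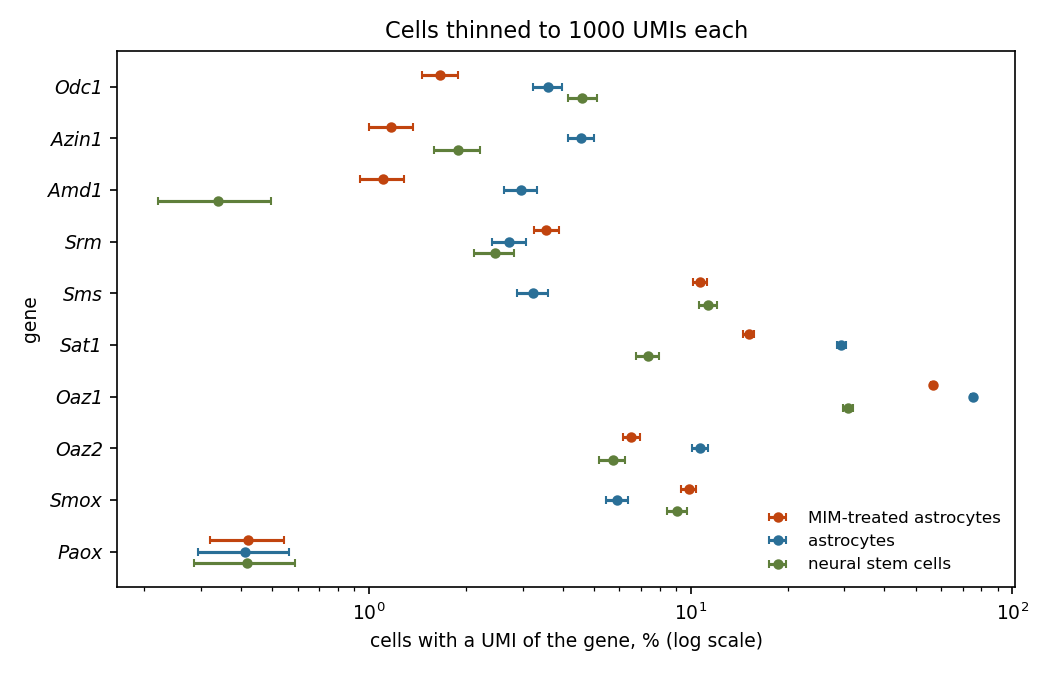
Share of cells (%, log axis) with at least 1 UMI of each gene after thinning to 1000 UMIs a cell, with exact 95% binomial intervals. Oaz1 spans 30.9% of neural stem cells to 75.4% of astrocytes, and the Paox intervals overlap at 0.422%, 0.412% and 0.416%.

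Spread between cells was read against genes of like mean level. The variance of thinned Sat1 UMIs over their mean, which is 1 when cells differ by counting alone, was 1.18 in MIM-treated astrocytes, 1.12 in astrocytes and 1.08 in neural stem cells. These values were above those of 95.1% of 511, 89.3% of 299 and 94.1% of 1030 genes of like mean. Odc1 stood above 94.1% of like genes in neural stem cells (ratio 1.06), as high as Sat1 there, and above 72.6% in MIM-treated astrocytes (1.02). In MIM-treated astrocytes the genes compared with Odc1 all had a higher mean, since a minimum mean was required. Sms stood above 87.3% in astrocytes. Oaz2 was evenly spread, above only 6.75% of like genes in astrocytes and 3.25% in neural stem cells.

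Genes around the pathway were read from 6 lists of 39 genes in all, by the wider rule. Over all genes that rule gave 8.49% higher and 15.2% lower for MIM-treated astrocytes over astrocytes, and with 3 to 8 measured genes a list no list count below is read as apart from these shares. Of 8 measured polyamine transport genes 1 was higher (Slc7a1) and 2 lower (Slc3a2 and Slc12a8) in MIM-treated astrocytes than in astrocytes. Slc3a2, the heavy chain of amino acid exchangers that is also linked to polyamine export, was at 73.4 CPM in MIM-treated astrocytes, 267 CPM in astrocytes and 46.6 CPM in neural stem cells. Gpc1, a proteoglycan through which polyamines can enter cells, was at 4.56, 3.26 and 33.4 CPM. Atp13a2, a lysosomal polyamine exporter, was at 12.2, 9.49 and 29.1 CPM. Of 3 measured genes of ornithine supply 1 was higher (Aldh18a1) and 1 lower (Oat) in MIM-treated astrocytes than in astrocytes. Oat, ornithine aminotransferase, was at 30.7 CPM in MIM-treated astrocytes, 155 CPM in astrocytes and 21.7 CPM in neural stem cells. Arg1, which releases ornithine from arginine in liver, was at 0 in every library, and Arg2 at no more than 0.217 CPM.

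Of 7 measured genes that supply S-adenosylmethionine or salvage its by-product 0 were higher and 1 lower in MIM-treated astrocytes than in astrocytes, with a list median log2 ratio of -0.65 beside -0.19 over all genes. Mat2a, which makes S-adenosylmethionine outside the liver, was the lower one, at 27.5 CPM in MIM-treated astrocytes, 62.9 CPM in astrocytes and 38.5 CPM in neural stem cells. Between MIM-treated astrocytes and neural stem cells 0 of 7 were past 2-fold, where 9.29% of all genes were higher and 20.5% lower. Of 4 genes of hypusination, the modification of translation factor eIF5A that uses spermidine, 0 were past 2-fold between the astrocyte libraries over all cells. Among non-dividing cells 1 was lower, where 6.05% of all genes were higher and 16.4% lower. It was Dohh, close to the threshold, at 31.8 CPM in MIM-treated astrocytes and 64.9 CPM in astrocytes. Eif5a itself was at 962 CPM in MIM-treated astrocytes, 693 CPM in astrocytes and 529 CPM in neural stem cells, while Dohh, the last enzyme of that step, was over all cells at 35.7, 65.1 and 14.3 CPM.

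Of 4 measured regulators 1 was higher and 1 lower in MIM-treated astrocytes than in astrocytes. Nfe2l2, the oxidative stress factor, was the lower, at 70.7 CPM in MIM-treated astrocytes, 171 CPM in astrocytes and 63.4 CPM in neural stem cells. Pmf1, named as a polyamine-modulated factor and a subunit of a kinetochore complex, was the higher, at 34.0, 3.93 and 9.39 CPM. It followed division, at 79.1 CPM in dividing and 7.57 CPM in non-dividing MIM-treated astrocytes, and at 40.6 and 5.04 CPM in neural stem cells. Of 3 measured close copies of members, Amd2 was higher and Sat2, a relative of Sat1, was lower in MIM-treated astrocytes (13.7 CPM) than in astrocytes (38.5 CPM), with 11.0 CPM in neural stem cells.

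The genes whose pattern was most like that of Odc1 over 5 groups (dividing and non-dividing MIM-treated astrocytes, non-dividing astrocytes, dividing and non-dividing neural stem cells) were Cdkn1b, Ptms, Nmt2, Ptp4a1 and Wnk1. The measure was the mean absolute difference of centred log2 levels among 3366 genes, which was 0.11 for Cdkn1b and 0.15 for Wnk1. For Sat1 they were Haghl, Fahd2a, Lrrc42, Acadvl and Tvp23b, with differences from 0.06 to 0.17. With 5 groups from 3 libraries closeness says little about any 1 gene.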

How the data were processed

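The deposited files hold UMI counts per gene and cell. Per the labels' protocols, the authors made them with Cell Ranger 3.0.2 on the 10x prebuilt mm10 reference, and the submitters' processing notes also name Seurat 3.1.1 without its role. Counts were whole numbers for 31053 genes, and the lowest deposited cell has 500 UMIs. The filter behind this is not given in the sources used here.

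Cells with at least 200 genes and at most 20% mitochondrial UMIs were kept, which removed 13 MIM-treated astrocytes, 7 astrocytes and 12 neural stem cells. Doublets were not called, and an alternative left out the 8% of cells with most UMIs. Counts were summed per library and class. Log2 ratios add 1 CPM, fold values do not, and fold intervals are exact binomial intervals on the counts. With 1 library a group there is no test. Thinning drew 1000 UMIs without replacement, which left out 973 MIM-treated astrocytes, 351 astrocytes and 1457 neural stem cells below that depth. A class needed 50 cells. Members and gene lists were chosen with earlier results of these data known. All 10 members are named throughout. List genes past 2-fold at 50 CPM, or otherwise the most counted, are named, and others (Gpc1, Arg1, Arg2, Atp13a2, Slc7a1, Slc12a8, Aldh18a1, Pmf1, Sat2, Myc) were chosen after their values were seen. Coordinates are from GENCODE M21 by gene ID (30934 of 31053 features and 10 of 10 members matched). Amd1 is also reported with Amd2, chosen after seeing the data. The ratio code was checked on counts simulated with counting error alone, for genes at 50 CPM or more. That check does not cover spread between cells, scaling or members below that level. Alternatives changed scaling (TMM from edgeR 4.0.16, size factors from DESeq2 1.42.0, totals without Malat1 or without mitochondrial and ribosomal protein genes, equal weight per cell), pseudocount, level minimum, cell filters, division thresholds and thinning depth. The software was R 4.3.3, Python 3.11.15, pandas 2.3.3, scipy 1.17.1, numpy 2.4.6 and matplotlib 3.10.9.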

Additional observations from a re-analysis of the deposited data

Results flagged for a closer look

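For 3 members the log2 ratio of dividing over non-dividing cells had opposite signs in MIM-treated astrocytes and in neural stem cells, and the difference between the libraries was not tested. Srm was at 0.76 in MIM-treated astrocytes and -0.28 in neural stem cells, where the dividing value rests on 32 UMIs and became 0.15 without the 8% of cells with most UMIs. Oaz2 was at -0.10 and 0.11, and Paox at 0.22 and -0.30, all with fold intervals that include no difference.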

How the results depend on the processing

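Of 34 member values past 2-fold over 9 comparisons, all 34 kept their sign under every alternative other than the sum of Amd1 and Amd2, and 18 stayed past 2-fold under each of them. The kept signs say little. The values were picked for a log2 size of at least 1, and the largest shift of the all-gene median was 0.53. A changed level minimum leaves log2 ratios as they are. The sum of Amd1 and Amd2, an alternative chosen after seeing the data, turned the Amd1 log2 ratio to -0.51 (all cells) and -0.52 (non-dividing) for astrocytes over neural stem cells. For MIM-treated astrocytes over neural stem cells it gave -0.60, -0.63 (non-dividing) and -0.57 (dividing), and for dividing over non-dividing neural stem cells 0.054. The cause was not tested.

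Of 120 recomputed counts of members past 2-fold, 91 were within 1.5 times the reported one. For MIM-treated astrocytes over astrocytes the count of 1 became 2 with TMM, DESeq2 size factors or equal weight per cell, and 3 without Malat1, at 10 CPM or with no minimum. Among non-dividing cells 3 became 6 at 10 CPM or with no minimum. For MIM-treated astrocytes over neural stem cells 2 became 4 at 10 CPM or with no minimum. Its non-dividing count of 1 became 2 under both size factor methods, without Malat1, without mitochondrial and ribosomal protein genes, with equal weight or at 2000 UMIs, and 3 at 10 CPM or with no minimum. Its dividing count of 2 became 4 under both size factor methods, at 10 CPM or with no minimum, and 1 without Malat1 or without mitochondrial and ribosomal protein genes. Within MIM-treated astrocytes 1 became 0 with equal weight, 10 CPM added or looser division thresholds. Within neural stem cells 0 became 1 with no minimum (Amd1) or without the 8% of cells with most UMIs (Odc1).

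Dividing shares in MIM-treated astrocytes were 26.4% without the 8% of cells with most UMIs, 33.8% at 2 or more division UMIs, 24.7% at 5 or more, 22.8% at 500 UMIs and 37.8% at 2000. In astrocytes they were 0%, 0.190%, 0% and 0% for the first 4 of these. In neural stem cells they were 5.51%, 9.16%, 6.14%, 5.24% and 23.0%, the last from deep cells only.

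TMM moved the median log2 ratio of all genes by 0.29 for MIM-treated astrocytes over astrocytes (611 higher and 381 lower, against 426 and 508), by 0.23 for astrocytes over neural stem cells (1132 and 581, against 997 and 732) and by 0.48 for MIM-treated astrocytes over neural stem cells (1121 and 242, against 575 and 458). Leaving out Malat1 moved it by -0.10, -0.38 and -0.45 (407 and 612, 867 and 1078, 329 and 834).

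No paired analysis was possible because each group is 1 library, and leaving out a replicate would leave an empty group. The neural stem cell library, with 14689259 UMIs, limits low members most: dividing neural stem cells held 1 Amd1 and 5 Paox UMIs.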
